A study of Homo sapiens with 12 samples.

Results

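The data described here are regions of N6-methyladenosine (m6A) enrichment that were listed for C4-2 cells with an empty vector and not for C4-2 cells that overexpress ALKBH5. C4-2 is an established human line of castration-resistant prostate cancer. The 6 deposited m6A lists were merged into regions, each a chain of same-strand peaks in which neighbours shared 1 base or more. The regions described were chosen by the presence of a listed peak: a region was kept when at least 2 of the 3 empty-vector (NC) lists and none of the 3 ALKBH5-overexpression (oeALKBH5) lists held a peak in it. Of 25666 regions in all, 589 met this rule, which is 2.29% of the regions and 5.44% of the 10826 regions in at least 2 NC lists. They are called NC-only regions below.

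m6A is a methyl mark that the METTL3-METTL14 writer complex places on adenosines of messenger RNA and that reader proteins such as the YTH and IGF2BP families bind. ALKBH5 is a nuclear demethylase that takes the mark off. In m6A immunoprecipitation sequencing, fragmented RNA is pulled down with an antibody to m6A (IP), and a peak is a stretch where the pulled-down reads stand above a background. A peak thus says that a stretch was enriched past the caller's threshold, and a missing peak does not by itself show that the mark is absent. Whether a peak is called also depends on how much of the transcript there is, and the part of transcript level in the regions below was not tested.

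The study comprised 12 libraries, an input and an IP library for each of 3 NC and 3 oeALKBH5 replicates of the same cell line, with no other treatment in the labels. The construct, its promoter, whether the cells were clones and whether the replicates were separate cultures are not given in the sources used here. Among luminal prostate markers, KLK3, which encodes prostate-specific antigen, lay between 893 and 1020 FPKM in the 6 input libraries. The 3 basal markers reached 3.34 FPKM at most and the 5 immune markers 4 FPKM. Of 4 fibroblast markers LUM was listed at 0 throughout, whereas COL1A1 lay between 2.17 and 27.6 FPKM. ALKBH5 mRNA was at 64.9, 61.1 and 58.2 FPKM in the NC inputs and at 80.3, 74.3 and 72.5 FPKM in the oeALKBH5 inputs. The means were 61.4 ± 3.39 and 75.7 ± 4.05 FPKM (SD, n = 3), the groups did not overlap, and how far the table counts reads from the construct is not stated.

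The lists differed in length, which touches each count below. The NC lists held 11902, 11559 and 11619 peaks in replicates 1, 2 and 3. The list of oeALKBH5 replicate 2 was about as long, with 11478 peaks, whereas oeALKBH5 replicates 1 and 3 held 16060 and 15052. A region is left out when any of the oeALKBH5 lists holds a peak in it, so a longer list can leave fewer NC-only regions. Each peak carried the authors' score, from 50 to a highest value of 3233.06, and between 3.66% and 6.75% of the peaks of a list were at 3100 or above, and peaks with the same score share a percentile. Because the score was not shown to be on one scale across lists, it is given mostly as a percentile within its own list, where 100 is the highest score.

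The highest-ranked NC-only regions are described first, by position in hg19, the build in the submitters' processing notes. No annotation of that build was used here, so genes are not named. The rank is the mean within-list score percentile over the NC lists that held the region. The 20 highest lay on 12 chromosomes, were 66 to 2634 bases wide with a median of 430, and had mean percentiles from 96.7 down to 65.3. The next region stood at 64.9, so the 20 are not set apart by a gap. Of the 20, 8 were in all 3 NC lists, and in 6 the borders were the same in every NC list that held them.

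**Figure D1:**
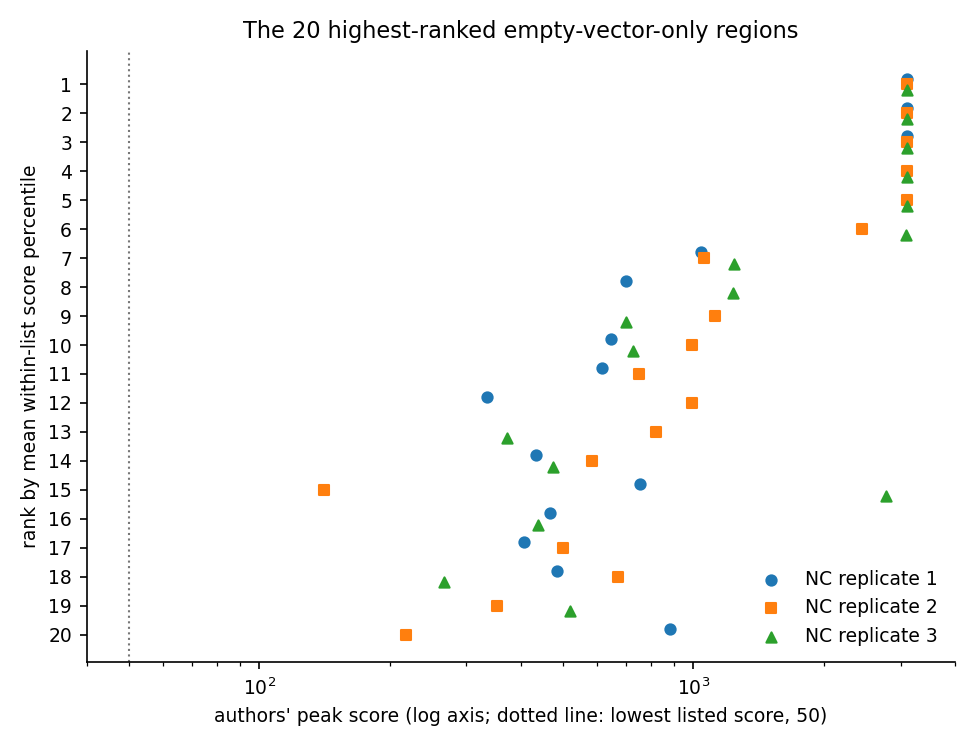
Authors' peak score (log axis) of the 20 highest-ranked NC-only regions in each NC list that held them, ranked by mean within-list score percentile. Ranks 1 to 5 sit at 3100 in every NC list that held them, and rank 15 spreads from 141.09 to 2775.24.

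Ranks 1 to 3 held the score of 3100 in all 3 NC lists. The first, at chr1:70716291-70717701 on the plus strand, was 1154, 1411 and 1395 bases wide in NC replicates 1, 2 and 3, with a common start. On the same strand, 5792 bases away, lay a 132-base region in all 6 lists, with scores of 3100 in each list but oeALKBH5 replicate 2, where it was 2707.28. Scores of 3100 tie at the top of the lists, and whether the 2 intervals lie on one transcript is not known without an annotation. The second, at chr16:28548662-28548990 on the minus strand, had the same 329 bases in each NC list. A 379-base region only 1126 bases from it scored 3100 in all 6 lists. The oeALKBH5 lists thus held one interval of this pair and the NC lists held both.

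The third, at chr19:45911391-45914024 on the plus strand, was 2634 bases wide in NC replicates 1 and 2 and 1853 bases in NC replicate 3. The 3 oeALKBH5 lists held a minus-strand interval, chr19:45910591-45912983 at its widest, which overlapped the NC-only region by 1593 bases and scored 3100, 3100 and 2709.1 in oeALKBH5 replicates 1, 2 and 3. No NC list held that minus-strand interval. The place was listed in all 6 libraries, on one strand in the NC lists and on the other in the oeALKBH5 lists.

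The same kind of exchange was seen at 4 further regions of the 20. At chr11:62437113-62439237 (minus strand), NC replicates 2 and 3 scored 3100, and a plus-strand interval 187 bases away was held by NC replicate 1 at 3100 and by oeALKBH5 replicates 1, 2 and 3 at 3100, 3100 and 2418.42. NC replicate 1, which lacked the NC-only interval, was here like the oeALKBH5 lists. At chr8:145538246-145538911 (minus strand), NC replicates 2 and 3 scored 1118.86 and 698.23, and a plus-strand interval that overlapped it by 140 bases was held by NC replicate 1 at 943.08 and by the oeALKBH5 lists at 1073.86, 1476.07 and 635.05. At chr3:186303133-186303589 (plus strand), NC replicates 1 and 2 scored 406.78 and 499.43, while NC replicate 3 and the oeALKBH5 lists held a 160-base interval of the same strand 754 bases away, at 1204.59 and at 1441.2, 564.12 and 729.44. At chr2:113082541-113082774 (plus strand), NC replicates 2 and 3 scored 352.6 and 520.34, while NC replicate 1 scored 402.14 and the oeALKBH5 lists 878.36, 122.51 and 276.8 in an interval 300 bases away. In each of these 4, the NC list without the region held the same neighbouring interval as the 3 oeALKBH5 lists.

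Such a neighbour, held by every list that lacks the region and by no list that has it, on either strand and less than 1000 bases away, was found for 6 of the 589 regions (1.02%). Of these, 5 were among the 20 highest ranked (25% of them) and 1 was among the other 569 (0.176%). The sixth was rank 287, at chr12:14947471-14947670 on the minus strand. This count was chosen after the highest-ranked regions had been seen, and it is a description. In the opposite class, the 1486 regions in at least 2 oeALKBH5 lists and no NC list (5.79% of all regions), 10 had such a neighbour (0.673%). The opposite class was not split by rank, so the higher share among the highest ranked is not shown to be particular to NC-only regions. At chr16:72134335-72134496 (plus strand), rank 6, the pattern was partial: NC replicates 2 and 3 scored 2442.01 and 3096.45, and 902 bases away on the same strand the 3 oeALKBH5 lists held a 113-base interval at 2438.29, 2180.87 and 1989.15 that no NC list held.

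Other high-ranked regions had no such neighbour. The region at chr2:238820170-238820759 on the plus strand, rank 7, had the same 590 bases in all 3 NC lists, with scores of 1042.41, 1055.52 and 1241.26. Its percentiles of 83.1, 82.4 and 85.2 lay close together. The nearest oeALKBH5 peak of its strand was 130172 bases away, and that of the opposite strand 333717 bases. It was the highest-ranked region with the same borders in all 3 NC lists and no oeALKBH5 peak within 10000 bases on either strand. The region at chr6:24701687-24702306 (plus strand), rank 5, scored 3100 in NC replicates 2 and 3 and was not in NC replicate 1. A 185-base region 3391 bases away was in all 6 lists, with scores from 401.15 to 620.21 in the NC lists and from 193.13 to 395.31 in the oeALKBH5 lists, whose score scales were not shown to match. At chr12:125396150-125398518 (minus strand), rank 15, the borders differed by at most 1 base between NC lists, but the scores were 753.64, 141.09 and 2775.24, or percentiles of 78, 37.6 and 92.8. That spread covers most of the score range within a single group.

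The remaining 9 of the 20 had scores from 334.53 to 1236.05 apart from the lowest peaks of ranks 18 and 20. At chr19:3530790-3530855 (plus strand), rank 8, NC replicates 1 and 3 scored 698.58 and 1236.05 in the narrowest region of the 20, 66 bases. At chr19:8531119-8531272 (plus strand), rank 10, all 3 NC lists held the same 154 bases, at 645.37, 990 and 726.21. At chr4:84205665-84206067 (minus strand), rank 11, NC replicates 1 and 2 scored 617.17 and 748.68. These 3 regions, and ranks 12, 13, 14, 16 and 18 below, had each of their NC scores above the median score of the list. That median was between 208.92 and 219.48 in the NC lists. Of the 9, only rank 20 had a peak under it, at 218.14 in NC replicate 2, where the median was 219.48. At chr1:1027946-1028193 (minus strand), rank 12, the scores of NC replicates 1 and 2 were 334.53 and 991.61, and at chr11:65746483-65746877 (plus strand), rank 13, those of NC replicates 2 and 3 were 819.72 and 371.1. At chr7:128371154-128371797 (plus strand), rank 14, the 3 NC lists scored 434.74, 582.92 and 475.79. Rank 14 was thus the more even across replicates, and it lay 7548 bases from a region in all 6 lists. Rank 16, at chr1:145509166-145511684 (plus strand), scored 466.35 and 439.24 in NC replicates 1 and 3. Rank 18, at chr3:113135372-113135474 (minus strand), scored 484.78, 671.83 and 265.81 in NC replicates 1, 2 and 3, and rank 20, at chrX:52255219-52255329 (minus strand), scored 881.29 and 218.14 in NC replicates 1 and 2.

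Most NC-only regions were weak. The scores are values that helped to choose the regions, since a peak is listed only past a score of 50, so they are a description with no test. The median region stood at the 22.9 percentile (quartiles 15.1 and 32.4), 543 of 589 (92.2%) were under the 50 percentile, 11 were at 75 or more and 6 at 90 or more. Low scores were not particular to them: the opposite class had a median percentile of 28.6 in the oeALKBH5 lists, with 88.9% under 50. Within the lists, the peaks in NC-only regions had median scores of 87.2, 90.1 and 91.2 in NC replicates 1, 2 and 3, against 225.2, 230.4 and 220.2 for all other peaks. The 5 lowest, all in 2 NC lists, had scores from 50.06 to 54.64; the very lowest, at chr3:183689351-183689822 (minus strand), scored 51.44 and 50.25 in NC replicates 1 and 3. The other 4 were chr8:103284757-103285159 (minus strand), chrX:105449311-105450307 (plus strand), chr11:85779693-85780139 (minus strand) and chr8:55047781-55047951 (plus strand). At that end both scores of a region lay just past the limit of listing.

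The regions just outside the rule lay on either side of the NC-only regions in score. Those in at least 2 NC lists and exactly 1 oeALKBH5 list numbered 1276, with a median percentile of 28.03 in the NC lists, and those in 1 NC list and no oeALKBH5 list numbered 2345, with a median of 14.3. The single oeALKBH5 list was replicate 1 in 606 of the 1276 (47.5%), replicate 3 in 377 (29.5%) and replicate 2 in 293 (23%). The order followed the lengths of the lists. By contrast, the 8961 regions in at least 2 lists of each group had a median percentile of 58.4.

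The share of regions without an oeALKBH5 peak fell with the score. Of regions in at least 2 NC lists, 26.3% of those under the 10 percentile were NC-only (73 of 278), 13.2% of those from 20 to 30 (175 of 1323), 3.04% of those from 40 to 50 (42 of 1381) and 0.186% of those from 80 to 90 (2 of 1074). From 90 to 100 the share was 0.542% (6 of 1107), and these are ranks 1 to 6 above, of which 2 had the exchange of intervals in full and 1 in part. By width of the joined region, the share was 8.39% under 100 bases (81 of 966) and 2.25% at 1000 bases or more (70 of 3109), but oeALKBH5 peaks widen a joined region and also remove it from the NC-only class. By the mean width of the NC peaks alone, a measure added after the first values were seen, the shares were 8.52% (85 of 998) and 2.14% (58 of 2711).

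**Figure D2:**
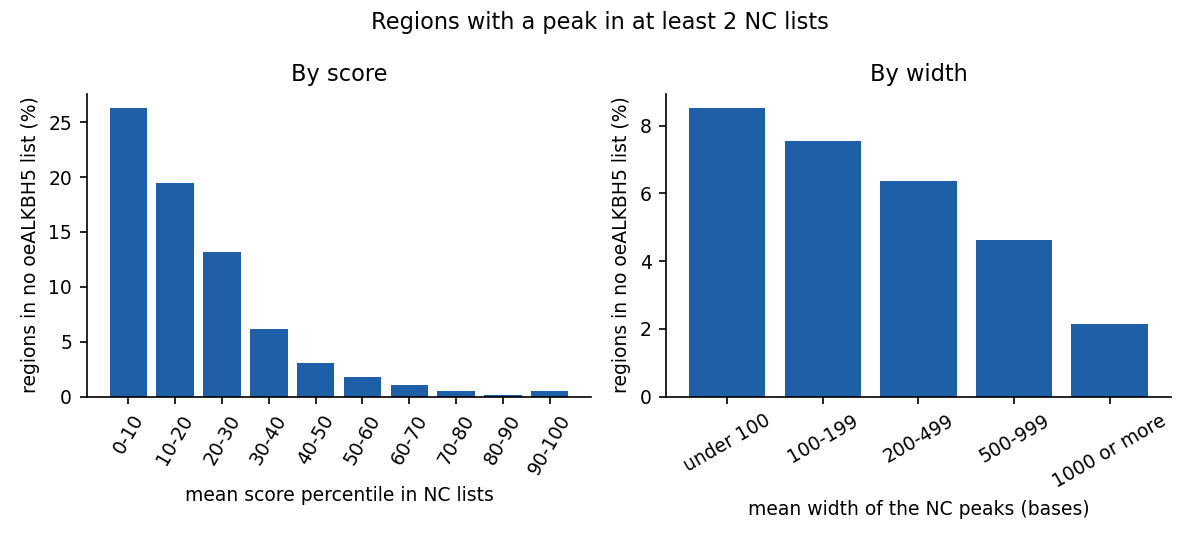
Share of regions in at least 2 NC lists that were in no oeALKBH5 list (bars, %), by mean within-list score percentile of the NC lists (left) and by the mean width of the NC peaks of the region in bases (right). The share goes from 26.3% to 0.186% with score, with 0.542% in the highest class, and from 8.52% to 2.14% with width.

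NC-only regions were narrower than regions shared by the groups. Their median width was 215 bases (quartiles 128 and 573, range 15 to 3879), against 486 bases for regions in at least 2 lists of each group and 270 bases for the 1486 regions of the opposite class. Per list, the peaks in them had a median width of 205 ± 15.3 bases, against 374 ± 14.2 bases for other peaks (mean ± SD of the 3 NC lists). With oeALKBH5 peaks kept out of the width, the mean width of a region's NC peaks had a median of 209 bases in NC-only regions and 455 bases in regions of at least 2 lists per group. Regions in all 3 NC lists had a median of 186 bases (n = 123) and those in 2 NC lists one of 231 bases (n = 466). A joined region grows with the number of peaks in it, so regions in more lists would be wider from the joining alone; here those in 3 NC lists were the narrower.

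The widest NC-only regions were not the highest in score. The widest, at chr19:14258549-14262427 (minus strand, 3879 bases), scored 448.86 and 116.49 in NC replicates 1 and 3. The others of the 5 widest were chr5:70404488-70407863 (minus strand, 3376 bases), chr14:55817099-55820329 (plus strand, 3231 bases), chr5:126379860-126382780 (minus strand, 2921 bases) and chr17:80347559-80350406 (minus strand, 2848 bases). Their mean percentiles lay between 19.8 and 50.2. Across the 589 regions, width and mean percentile had a Spearman rho of 0.116, and in regions of at least 2 lists per group one of 0.185; the points share lists, so this is a description.

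The borders of NC-only regions, as deposited, were mostly repeated exactly. In 355 of 589 (60.3%) start and end were the same in every NC list that held the region, in 192 (32.6%) one border was the same, and in 42 (7.13%) neither was. The regions with identical borders had a median width of 159 bases and the others one of 571.5. Regions in at least 2 lists of each group had identical NC borders in 63.6%, and the opposite class had identical oeALKBH5 borders in 46%. How the deposited intervals were cut from the called peaks is not stated in the sources used here, and whether the borders, the widths and the exchanged neighbouring intervals follow gene models or later filtering, more than the place of enrichment, was not tested. The scores of NC-only regions varied between the NC lists. Between pairs of NC lists, the percentiles of NC-only regions had a Spearman rho of 0.272 to 0.306 (n = 263 to 292), and differed by a median of 12.9 to 15.7 points. In regions of at least 2 lists per group the rho was 0.82 to 0.821 and the median difference 7.7 to 7.9 points; these regions span a wider range of scores, and the points of a pair share both libraries.

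The 3 NC lists took part about equally. Replicates 1 and 2 alone held 157 of the regions (26.7%), replicates 1 and 3 alone 169 (28.7%), replicates 2 and 3 alone 140 (23.8%), and all 3 held 123 (20.9%). Of the 123, 77 had the same borders in each list, and 26 of these had no oeALKBH5 peak within 10000 bases on either strand. These 26, picked after the values were seen, lay on 13 chromosomes, with a median width of 159.5 bases and a median percentile of 29.8. Besides chr2:238820170-238820759, 5 of them were at the 50 percentile or above. The 15-base region at chr1:243481339-243481353 (plus strand) scored 251.12, 293.26 and 402.72 in NC replicates 1, 2 and 3. It was the narrowest of the 589. The 126-base region at chr7:105121499-105121624 (minus strand) scored 191.2, 297.33 and 408.86, and the 118-base region at chr7:66514936-66515053 (plus strand) scored 213.51, 181.14 and 460.67. In all 3 of these short regions NC replicate 3 had the highest score. The 1005-base region at chr14:67647521-67648525 (plus strand) scored 218.34, 472.4 and 170.08, and the 2827-base region at chr15:63615730-63618556 (minus strand) scored 427.76, 203.69 and 186.7.

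NC-only regions lay on 23 of the 24 chromosomes in the lists, from 4 on chromosome 21 to 59 on chromosome 1. As a share of the regions in at least 2 NC lists on each chromosome, they ranged from 3.2% (chromosome 21) to 9.88% (chromosome 18, 17 of 172), with a median of 5.33%. The 95% Wilson interval, which covers counting error only, excluded the 5.44% of all chromosomes on 2 of them, chromosome 18 (6.26% to 15.3%) and chromosome 2 (55 of 726, 7.58%, 5.87% to 9.73%). With 23 intervals looked at, intervals that miss the whole are no test. On chromosome Y none of 12 such regions was NC-only, which allows a share of up to 25%. The plus strand held 314 (53.3%) and the minus strand 275 (46.7%), against 51% and 49% of regions in at least 2 NC lists.

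**Figure D3:**
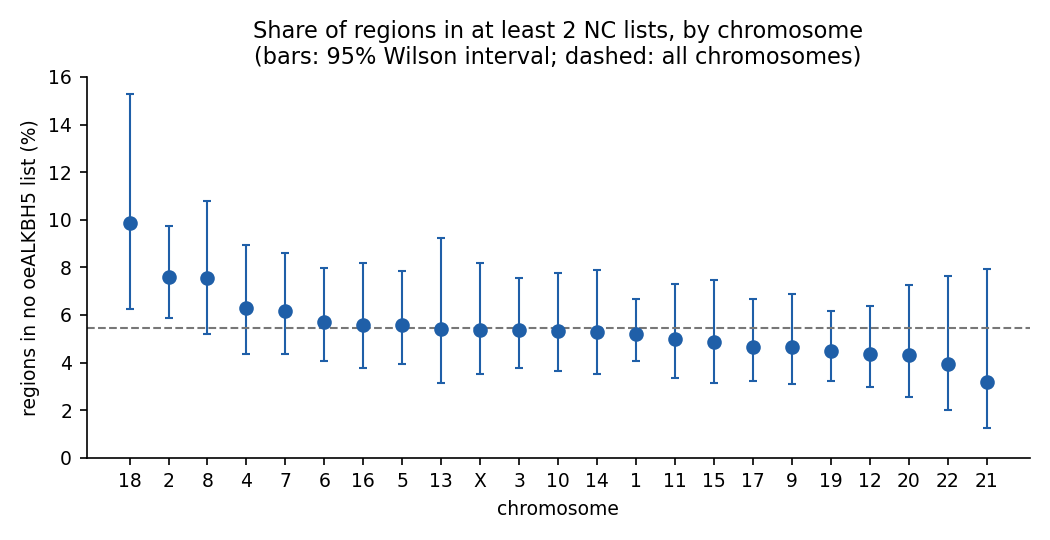
Share of regions in at least 2 NC lists that were in no oeALKBH5 list (points, %), by chromosome, with 95% Wilson intervals and the share over all chromosomes as a dashed line at 5.44%. The intervals of chromosomes 18 and 2 lie above the line.

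Of the 589, 20 (3.4%) lay within 10000 bases of another on the same strand, in 9 groups. The share was 6.12% for the opposite class and 43.5% for the 10826 regions in at least 2 NC lists, and since these classes are larger, the shares are not comparable as a measure of grouping. The largest groups had 3 regions each, one at chr1:93677658-93692006 (plus strand, widths 117 to 161 bases, percentiles 9.7 to 59.7) and one at chr20:60990177-61002629 (minus strand, widths 114 to 167 bases, percentiles 4.7 to 36.1).

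Many of them had a listed oeALKBH5 peak nearby. No oeALKBH5 peak of the same strand overlapped any of them, which the rule fixes, but 61 (10.4%) had one within 1000 bases and 326 (55.3%) within 10000 bases, with a median distance of 8277 bases. For the opposite class, 7.67% had an NC peak of the same strand within 1000 bases and 41.1% within 10000 bases. The median distance was 16377.5 bases. The oeALKBH5 lists together held more peaks than the NC lists, and more peaks can shorten the distance to the nearest. The values of the classes are thus not comparable as a measure of nearness, and no other class of NC regions was measured against oeALKBH5 peaks. On the opposite strand 4 of the 589 were overlapped by an oeALKBH5 peak: those on chromosomes 19 and 8 given above, chr12:75891902-75893731 (minus strand, 53.37 and 296.12 in NC replicates 1 and 2) and chr19:1473200-1473795 (minus strand, 51.15 and 62.35 in NC replicates 1 and 2). A region held by all 6 lists lay within 10000 bases on the same strand for 135 (22.9%), against 17.9% of the 2345 regions in 1 NC list only and 17.6% of the opposite class. Within 1000 bases the shares were 1.7%, 1.92% and 1.82%, so the higher share of the NC-only regions was seen at the wider distance only.

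The numbers in the peak names show that most called peaks are not listed. The lists are labelled as mRNA lists, and how many of the missing numbers belong to peaks outside mRNA was not tested. Names run to 150667 to 152364 in the NC lists and to 150232 to 175819 in the oeALKBH5 lists, each number was listed at most once, and the numbers followed position along each chromosome in all 6 lists. Between the listed peaks, of either strand, that flank an NC-only region, a median of 12, 18 and 14 numbers was missing in oeALKBH5 replicates 1, 2 and 3. At least 1 number was missing there in every oeALKBH5 list for 563 of the 589 regions (95.6%). The 2345 regions in 1 NC list and no oeALKBH5 list had medians of 13, 18 and 15 and a share of 95.3%, so these values are not particular to the NC-only regions. Over all gaps between neighbouring listed peaks, a median of 3, 4 and 4 numbers and a mean of 9.5, 12 and 10.6 was missing. A gap that holds a given place tends to be a long one, so all gaps are no like background for the regions. For the 563 it cannot be told from the lists whether a peak was called at the place and then removed. No number was missing in any oeALKBH5 list for 2 regions, chr2:113082541-113082774 and chr12:14947471-14947670. Both are among the 6 regions with a neighbouring interval in exactly the lists that lack them.

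The last comparison asked whether a region chosen as NC-only from some lists is NC-only in others. Regions were chosen with 2 NC and 2 oeALKBH5 lists (a peak in both NC lists and in neither oeALKBH5 list) and looked up in the NC list and the oeALKBH5 list of the same number that were left out. The lists left out had no part in the choice, beyond the joining of peaks into regions. With replicates 1 left out, 329 of 593 regions were in the NC list (55.5%) and 330 in the oeALKBH5 list (55.6%). With replicates 2 left out, 227 of 457 were in the NC list (49.7%) and 165 in the oeALKBH5 list (36.1%), and with replicates 3 left out, 218 of 468 (46.6%) and 188 (40.2%). The NC share was higher in 2 of the 3 pairs and equal to within 1 region in the other. Both conditions together, a peak in the left-out NC list and none in the left-out oeALKBH5 list, were met by the 123 regions in 3 NC and no oeALKBH5 lists. That is 20.7%, 26.9% and 26.3% of the regions chosen (mean 24.6%). The 123 are the same regions each time, so these shares differ only by the number of regions chosen and have no spread over replicates. The reverse, a peak in the left-out oeALKBH5 list and none in the NC list, was found for 124, 61 and 93 (20.9%, 13.3% and 19.9%). The remaining regions were in both left-out lists (206, 104 and 95) or in neither (140, 169 and 157).

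On average, 50.6% ± 4.52 of the chosen regions were in the left-out NC list and 44% ± 10.3 in the left-out oeALKBH5 list (mean ± SD, n = 3). The regions found in the left-out NC list were the same ones whichever NC list was left out. They numbered 329, 227 or 218 with oeALKBH5 replicate 1, 2 or 3 left out. The SDs here and below are thus no spread over independent replicates. The difference of the means was smaller than the SD of the oeALKBH5 shares, which is a description only. Over all 9 combinations of 1 NC and 1 oeALKBH5 list left out, the NC share was higher in 6. The 3 in which it was not all had oeALKBH5 replicate 1, the longest list, left out. Regions in both left-out lists count in both shares. Each combination thus sets the same 123 regions against the 61 to 150 found in the left-out oeALKBH5 list alone. The 9 combinations are therefore not 9 separate comparisons. The choices share lists, so no p-value is given. Regions in all 4 used lists were in the left-out list far more often, in 93.4% ± 1.21 for NC and 92.4% ± 2.91 for oeALKBH5. They were not matched to the NC-only choice for score. The median percentile was 58.4 in regions of at least 2 lists per group and 22.9 in NC-only regions. Regions chosen the other way round, in 2 oeALKBH5 and no NC list, were in the left-out oeALKBH5 list in 45.7% ± 12.9 and in the left-out NC list in 28.8% ± 3.44.

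**Figure D4:**
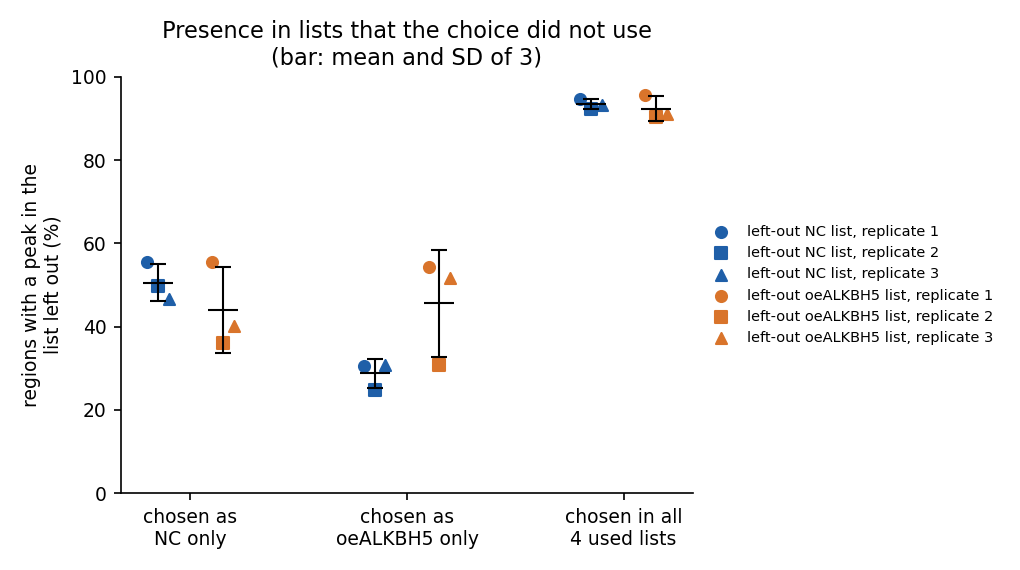
Share of regions with a peak in a list that the choice did not use (%), for regions chosen as NC only, as oeALKBH5 only or in all 4 used lists; points are the 3 same-numbered pairs of lists left out, bars the mean and SD. Regions chosen as NC only reached 46.6% to 55.5% in the left-out NC list and 36.1% to 55.6% in the left-out oeALKBH5 list. Regions in all 4 lists reached 90.3% or more in both. The pairs share lists and regions, so the SD is no spread over independent replicates, and the classes were not matched for score.

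The number of NC-only regions changed with the lists compared. As deposited, there were 589 against 1486 of the opposite class. With each list reduced to its 11478 highest-scoring peaks, the length of the shortest, there were 882 NC-only and 800 oeALKBH5-only regions, so the order of the classes turned. This cut falls mostly on the weakest peaks of oeALKBH5 replicates 1 and 3, which held 16060 and 15052. The NC lists, with 11559 to 11902 peaks, lose few. The cut can thus by itself raise the first count and lower the second. Leaving out an oeALKBH5 list changes the rule as well: an NC-only region then has to be absent from 2 lists and an oeALKBH5-only region has to be in both, so the first count can only rise and the second only fall. Without oeALKBH5 replicate 1 there were 1198 against 509, without oeALKBH5 replicate 2 there were 882 against 935, and without oeALKBH5 replicate 3 there were 967 against 541. Without NC replicate 1, 2 or 3 the rule moves the other way, and there were 263, 292 and 282 NC-only against 2043, 1979 and 1973 oeALKBH5-only regions. The counts without a list thus do not show which class is the larger under the same rule.

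**Figure D5:**
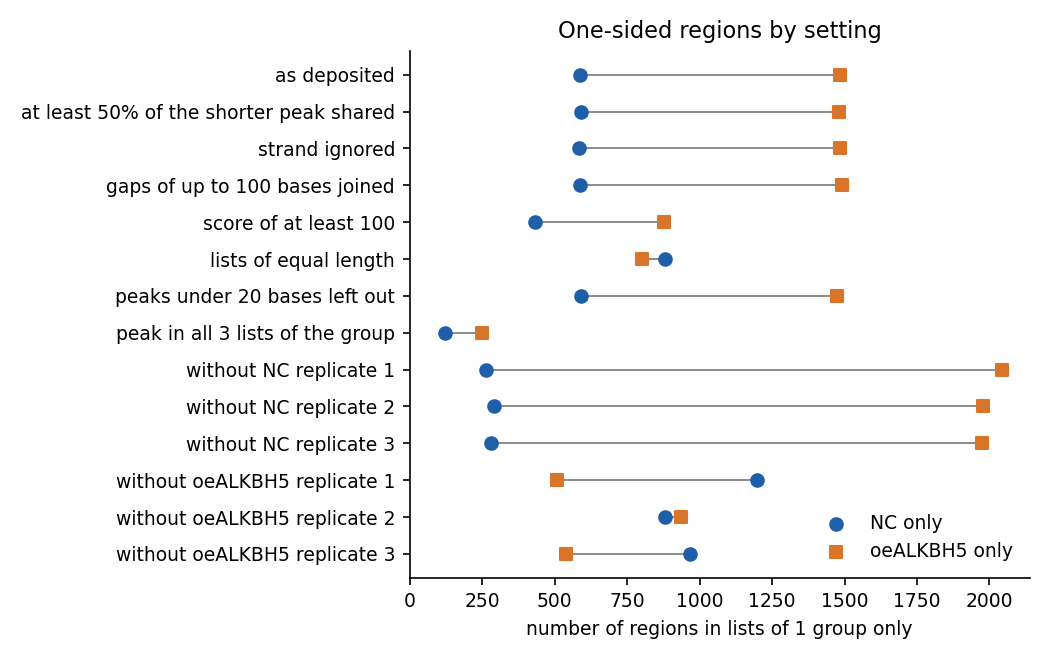
Number of NC-only regions (circles) and oeALKBH5-only regions (squares) as deposited and under each alternative way of joining, filtering or leaving out lists. NC-only regions are fewer as deposited (589 and 1486) and more numerous with lists of equal length (882 and 800); leaving out a list also changes how many lists a region must be in or absent from.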

How the data were processed

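The IP libraries were deposited by the authors as 1 peak list each, with a score per peak. The lists are labelled as mRNA lists. The deposited peak names are those of MACS, and its version, options, control and any other later filters are not given in the sources used here. The input libraries were deposited as gene values without a unit, taken as FPKM from Cufflinks and Cuffdiff in the submitters' processing notes, which also name cutadapt 1.9.3, HISAT2 2.0.4 and hg19. Depth is unknown, so counting intervals cover numbers of regions only.

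Peaks were joined with Python 3.11.15, pandas 2.3.3 and numpy 2.4.6 and plotted with matplotlib 3.10.9. The joining and the counts of NC-only and oeALKBH5-only regions were tested on simulated lists, and the other steps were not. Samples were grouped by title. Tied scores shared a mean percentile. Positions count from 1. The members and lists were chosen with earlier results of these data known. Regions were named by rule: the 20 highest and 5 lowest by mean percentile and the 5 widest, with exceptions marked. Since the rule used the contrast, no test was run. Alternatives were the joining, strand, score, width, list length and each list left out. No sequence was printed.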

Additional observations from a re-analysis of the deposited data

How the results depend on the processing

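No paired analysis was possible because the results come from no test across samples. The same-numbered lists left out together served only to form pairs, and all 9 combinations of lists left out gave mean shares of 50.3% for NC and 44.3% for oeALKBH5. Of 61 values recomputed under 15 alternatives, 41 stayed within 1.5 times the reported count, within 1 SD of the lists or pairs, or within the 95% Wilson interval (17.8% to 24.4%) for the share of NC-only regions in all 3 NC lists or that of the shares by width, and 20 did not. Joining at 50% overlap, ignoring strand, joining gaps of up to 100 bases and leaving out peaks under 20 bases gave 592, 585, 588 and 590 regions. With scores of at least 100, the median width was 305 bases and the median percentile 42.4, with 431 regions; this setting removes the lowest peaks. Lists of equal length gave 882 regions, which counts as within 1.5 times although the order of the classes turned, and a median percentile of 24.5. A peak in all 3 NC lists left 123 regions, with a median width of 186 bases and a median percentile of 26. The width of the NC peaks alone, tried after seeing the data, left the shares by width within their intervals. Leaving out 1 list gave 263 to 1198 regions, median widths of 186 to 249.5 bases and median percentiles of 22.8 to 24.9. In the alternatives run, the mean share in the left-out NC list stayed above that in the left-out oeALKBH5 list, with 53.4% against 39.9% in lists of equal length.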
